A study of Rattus norvegicus with 21 samples.

Results

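The genes described here are 8 transcription factors that direct the development of the pituitary gland: the homeobox genes Isl1, Lhx3, Lhx4, Hesx1, Six3, Six6 and Pitx1, and the zinc finger gene Gata2. They were found by gene symbol in the probe annotation of the Affymetrix Rat Gene 1.0 ST array, where each had exactly 1 probe set, and they make up 8 of the 15310 probe sets with 1 gene symbol (29214 probe sets in all). Expression was measured in 16 lesions macrodissected from the pituitaries of MENX rats and in 5 pituitaries of wild-type rats. MENX rats are homozygous for a loss-of-function mutation of Cdkn1b (spelled Cdknb1 in the labels), the gene of the cell cycle inhibitor p27, and develop adenomas in the anterior lobe that derive mainly from gonadotroph cells, the makers of luteinizing and follicle-stimulating hormone. The lesions carried 9 sample numbers, read here as rats (the study's text counts more rats than the labels have numbers), of which 4 gave 1 lesion, 3 gave 2 and 2 gave 3. The 9 mutant rats (6 females, 3 males) were 7 to 12 months old and the 5 wild-type rats (2 females, 3 males) were all 6 months old, on the same Sprague–Dawley white eye/Wistar–Kyoto background, so that age and genotype cannot be told apart. Sample numbers began with 08 or 09, a prefix whose meaning was not given in the sources used here. All 3 male adenoma rats had the prefix 08, so that sex and prefix are mixed among the adenomas. Values are on a log2 scale, on which a difference of 1 is a 2-fold change, and levels of different genes cannot be set against each other because each probe set binds with its own strength.

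The anterior pituitary grows out of Rathke's pouch, a fold of the oral ectoderm. Pitx1, Hesx1, Six3 and Six6 act while the pouch forms, and the LIM homeodomain factors Lhx3 and Lhx4 keep its cells alive and dividing. Isl1 is also present in the earliest pouch. Later, Isl1 and Gata2 act in the ventral lineages that give rise to gonadotrophs and thyrotrophs (the makers of thyroid-stimulating hormone). Most of this is known from mice, and mutations of HESX1, LHX3 and LHX4 in humans cause combined pituitary hormone deficiency.

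The medians of the 21 arrays lay between 6.36 and 6.53. Cdkn1b mRNA was at 8.86 in the lowest, 9.21 in the median and 9.58 in the highest lesion, against 8.65, 8.98 and 9.11 in the lowest, median and highest wild-type pituitary (adjusted p = 0.0324 from limma), so the mutant gene's mRNA was not lower. Of 5 measured gonadotroph markers, Cga, Gnrhr and Nr0b1 were higher and Lhb and Fshb lower in the adenomas. The summed level of these markers on the log2 scale was 14.11 to 14.40 in the lesions and 12.91 to 14.06 in the wild-type pituitaries. This sum follows mainly Cga and Gnrhr, which averaged 13.77 and 12.05 in the adenomas. Lhb (7.15) and Fshb (7.86), which fell, hardly weigh in it there. All 4 somatotroph markers, 4 of 5 corticotroph and melanotroph markers and 5 of 8 folliculostellate and stem cell markers were lower, 1 thyrotroph marker was higher and 1 lower of 4, and 0 of 4 lactotroph and 0 of 2 red blood cell markers passed the test. Of 8 neuron markers 1 was higher and 2 were lower, and of 9 posterior lobe markers 0 were higher and 4 lower. In the 4 lesions of adenoma rats 7, 8 and 9 the summed posterior lobe markers reached 11.74 to 12.21, above the other lesions (9.88 to 10.97) and above the wild-type pituitaries (10.72 to 11.11). This came from 1 gene, the sodium channel Scn7a, at 11.39 to 11.98 in these lesions, 6.91 to 10.43 in the other lesions and 8.34 to 10.30 in the wild-type pituitaries, while the sum of the other 8 markers was 9.41 to 9.53 in these lesions, 9.18 to 9.85 in the other lesions and 9.89 to 10.41 in the wild-type pituitaries. Macrophage markers were higher for 4 of 7 genes, endothelial markers for 3 of 6 and pericyte and fibroblast markers for 4 of 7. In bulk tissue, fewer cells of a type and less RNA per cell cannot be told apart, and the part of these cell types in the results below was not tested.

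Isl1 was the only factor of the 8 that passed the test between adenomas and wild-type pituitaries, and it was higher in the adenomas of all 9 rats. Hesx1 and Six3 had negative fold changes just short of the adjusted threshold. Lhx3, Lhx4, Six6, Pitx1 and Gata2 did not pass the test either, with positive fold changes for Lhx3 and Pitx1 and negative ones for the others, and their 95% intervals include 0. At an adjusted p under 0.05, 1 of the 8 factors was thus called higher, where 8.49% of all probe sets were, and 0 of 8 were called lower, where 9.06% of all probe sets were. The median log2 fold change of the 8 factors was -0.12, against -0.035 over all probe sets. At an unadjusted p under 0.05, Isl1, Hesx1 and Six3 passed, 3 of 8 factors, where 32.7% of all probe sets did. The plot of fold changes with their intervals shows the range of sizes.

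**Figure D1:**
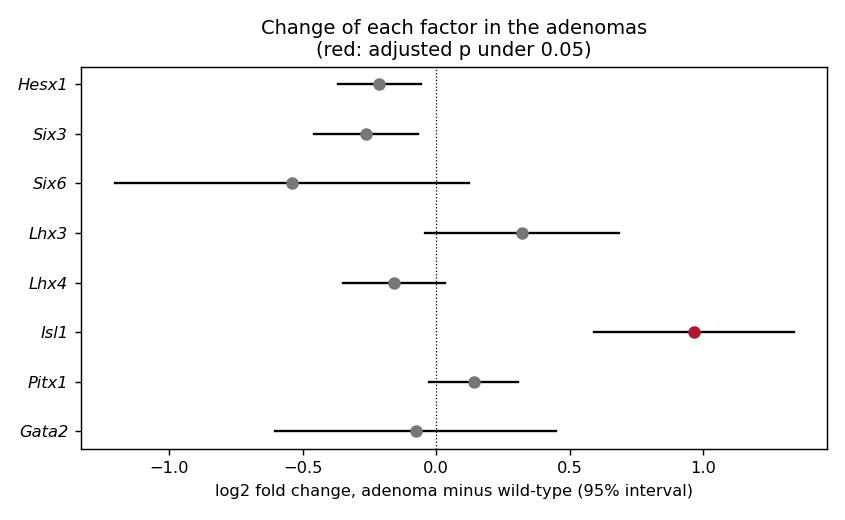
Log2 fold change (adenoma minus wild-type) of each of the 8 factors on the horizontal axis, with bars for the 95% interval from limma (9 adenoma rats, 5 wild-type pituitaries). Isl1, in red, lies at 0.96 with an interval of 0.59 to 1.34, and the grey points did not pass the adjusted threshold.

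Isl1 encodes a LIM homeodomain protein that in mice is present in the earliest pouch and later in gonadotrophs and thyrotrophs, where it is needed for normal hormone production. The gene lies on chromosome 2 (49813618 to 49823442 in the GRCr8 build). Because it was the only factor that passed the adjusted threshold, the 250 bases before its start (RefSeq, GRCr8, chr2:49823443-49823692, minus strand, 5′ to 3′) are shown, with the only match to any of the 4 searched motifs in capitals, a GATA motif (AGATAA) that begins 248 bases before the start.
Isl1: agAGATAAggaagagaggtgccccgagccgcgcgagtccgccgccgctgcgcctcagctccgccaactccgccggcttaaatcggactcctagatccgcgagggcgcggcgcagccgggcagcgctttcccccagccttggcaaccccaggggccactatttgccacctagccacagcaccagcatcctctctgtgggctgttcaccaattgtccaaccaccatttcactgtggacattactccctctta
Both strands of the window before the start were searched in 7 of the 8 factors for a pair of motifs of GATA factors that differ in their opening base, AGATAA as well as its close variant TGATAA, for the LIM homeodomain motif TAATTA and, for the PITX factors, the bicoid-type motif TAATCC. Isl1 had AGATAA and none of the other 6 promoters held any of the 4 motifs, while over all 33469 promoters AGATAA occurred in 10.3%, its variant TGATAA in 7.97%, the LIM homeodomain motif in 4.86% and the PITX motif in 6.34%. A match is a string of letters and not a measured binding site.

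Isl1 was at 7.34 in the lowest, 7.94 in the median and 8.34 in the highest of the 16 lesions, against 6.55, 7.37, 7.36, 6.96 and 6.35 in wild-type pituitaries 1 to 5. Of the 16 lesions, 15 lay above every wild-type pituitary, and the exception was a lesion of adenoma rat 5, at 7.34, whose 2 companion lesions in the same rat were at 7.92 and 7.73. Averaged per rat, the adenomas were at 7.88 ± 0.26 (SD, n = 9) and the wild-type pituitaries at 6.92 ± 0.46 (SD, n = 5), which gives a log2 fold change of 0.96 (standard error, SE, of 0.18, limma adjusted p = 0.00201) or 1.95-fold. All 9 rats lay above all 5 wild-type pituitaries, a separation without overlap that 4.82% of all probe sets showed. Without adenoma rats 7, 8 and 9, in which Scn7a was high, the fold change was 0.89 (adjusted p = 0.0162), and it was 0.89 within prefix 08 (adjusted p = 0.120) and 1.04 within prefix 09 (adjusted p = 0.0236). With the adenomas of 7 and 8 months alone, the ages nearest to the wild-type age, the fold change was 0.63 (adjusted p = 0.619, 2 adenoma rats). Both of these rats were female and were set against wild-type pituitaries of both sexes. Isl1 averaged 6.45 in the female and 7.23 in the male wild-type pituitaries, and the part of sex in this value was not tested.

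The 3 other probe sets with 1 symbol whose values ran most like those of Isl1 over the 14 averaged values were Gpr137b (Pearson's r = 0.95), Rbfox2 (r = 0.95) and Luzp1 (r = 0.95). These correlations hold the difference between the groups. Over the 9 adenoma values alone they were 0.70 for Gpr137b, 0.95 for Rbfox2 and 0.68 for Luzp1.

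**Figure D2:**
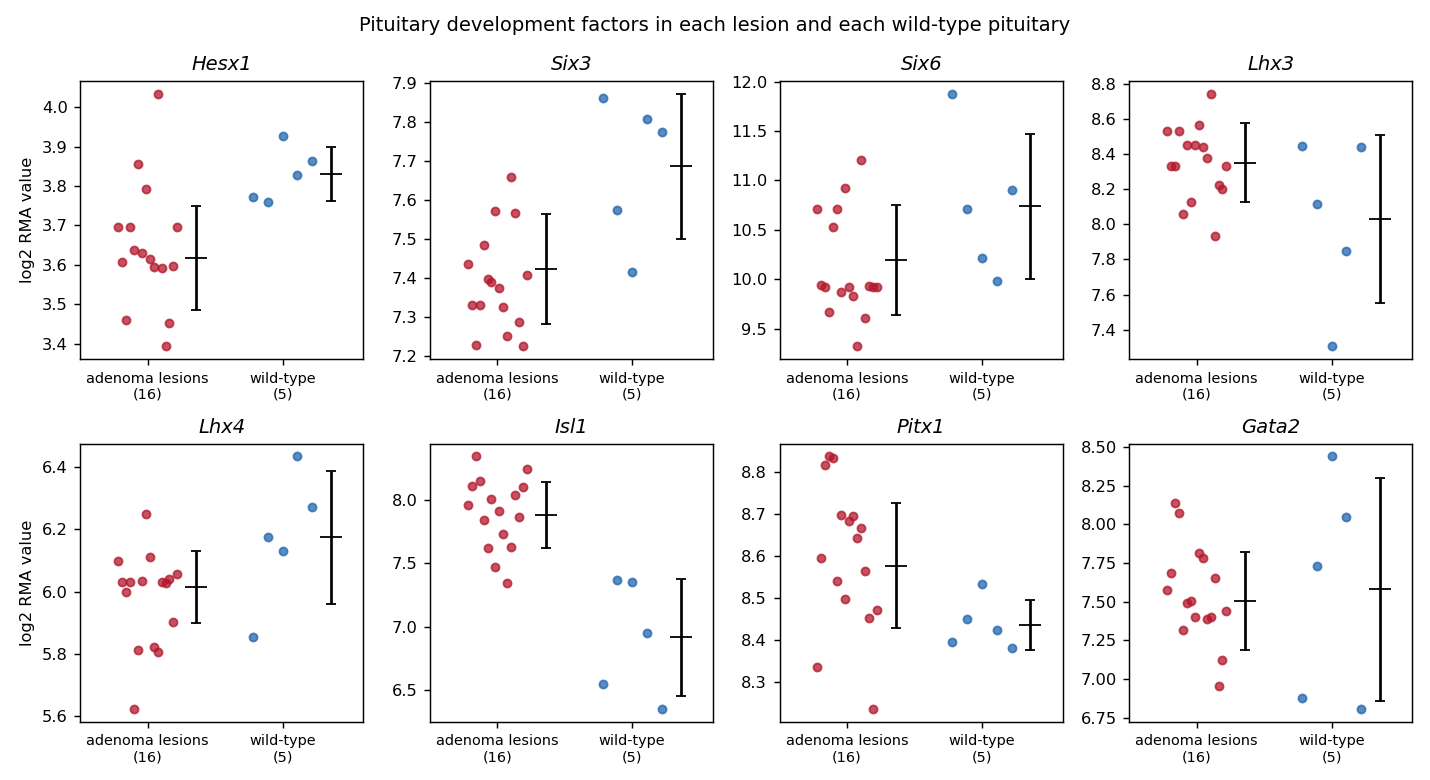
Log2 RMA value (vertical axis, each panel with its own range) of each factor in the 16 adenoma lesions (red) and the 5 wild-type pituitaries (blue), with horizontal and vertical bars for the mean ± SD over 9 adenoma rats and 5 wild-type pituitaries. For Isl1, 15 of 16 lesions lie above every wild-type pituitary, while for Gata2 no lesion lies outside the wild-type range.

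Lhx3 and Lhx4 are the LIM homeodomain factors of the growing pouch, and LHX3 also activates the promoters of Cga, Fshb, Tshb and Prl. Neither passed the test. Lhx3 (chromosome 3, 29424620 to 29432637) was at 7.93, 8.36 and 8.74 in the lowest, median and highest lesion, against 8.44, 8.11, 7.31, 7.85 and 8.44 in wild-type pituitaries 1 to 5. The 2 female wild-type pituitaries (1 and 5) stood at the level of the adenomas and the 3 males below most of them, and 6 of 16 lesions lay above all wild-type pituitaries. The log2 fold change of Lhx3 was 0.32 (SE 0.17, adjusted p = 0.205, 95% interval -0.041 to 0.68).

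Lhx4 (chromosome 13, 70423768 to 70477337) was at 5.62, 6.03 and 6.25 in the lowest, median and highest lesion, against 5.86, 6.18, 6.13, 6.43 and 6.27 in the wild-type pituitaries. Wild-type pituitary 1 was low and lay within the adenomas, while the other 4 were above most lesions. The log2 fold change was -0.16 (SE 0.090, adjusted p = 0.238), and without wild-type pituitary 1 it was -0.24 (adjusted p = 0.0481). The Lhx4 probe set was dim, above the median of all values on 1 of 21 arrays.

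Hesx1 encodes a paired-like homeobox repressor that has to be switched off for pituitary cells to differentiate. Its gene lies on chromosome 16 (2198589 to 2200694). The probe set was among the dimmest of the array, brighter than 9.00% of all probe sets and above the overall median on 0 of 21 arrays, so its differences are measured close to background. Hesx1 was at 3.39, 3.62 and 4.03 in the lowest, median and highest lesion, against 3.77, 3.76, 3.93, 3.83 and 3.86 in wild-type pituitaries 1 to 5. Of the 16 lesions 13 lay below all wild-type pituitaries and 1, in adenoma rat 5, lay above them all. Averaged per rat, the adenomas were at 3.62 ± 0.13 (SD, n = 9) and the wild-type pituitaries at 3.83 ± 0.069 (SD, n = 5), and 8 of 9 rats were below every wild-type pituitary. The log2 fold change of -0.21 (SE 0.073) did not pass the test (adjusted p = 0.0580). It passed without adenoma rat 4 (-0.23, adjusted p = 0.0406) and moved further from the threshold without rats 7 to 9 (-0.15, adjusted p = 0.183), of which rats 7 and 8 held the lowest values, 3.39 and 3.45.

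Six3 and Six6 are close relatives on chromosome 6 (Six3 at 14791937 to 14796365, Six6 at 97357883 to 97375415). SIX3 represses Wnt signalling in the anterior head, and SIX6 in the mouse promotes the division of pituitary and retinal precursor cells by repressing genes of cyclin-dependent kinase inhibitors, p27 among them. Their promoters carried the longest run of identical letters found between any 2 of the 7 promoters searched (21 pairs), 12 bases, which is why they are shown (RefSeq, GRCr8, 5′ to 3′, the shared run in capitals). The Six3 stretch is at chr6:14796399-14796428 on the minus strand, 172 to 143 bases before the start, and the Six6 stretch is at chr6:97370342-97370371 on the plus strand, 93 to 64 bases before the start, and in both genes this start lies inside the annotated span.
Six3: gtactcagtATTGATTGGCAGggctgacag
Six6: agtcgcagcATTGATTGGCAGagctgccta
The run was noticed after the sequences had been seen. It occurred in 5 of the 33469 promoters (0.0149%), those of Six3, Six6, Gstm6, Pskh1 and LOC120102251, and no other pair of the factors shared more than 10 bases.

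Six3 was at 7.22, 7.38 and 7.66 in the lowest, median and highest lesion, against 7.86, 7.57, 7.42, 7.81 and 7.77 in wild-type pituitaries 1 to 5. Wild-type pituitaries 2 and 3 lay within the adenomas and the other 3 above all lesions, and 11 of 16 lesions were below every wild-type pituitary. The rat averages were 7.42 ± 0.14 in the adenomas (SD, n = 9) and 7.69 ± 0.19 in the wild-type pituitaries (SD, n = 5). The log2 fold change of Six3 was -0.26 (SE 0.091) and just missed the threshold (adjusted p = 0.0584). It passed with sex as a covariate (-0.31, adjusted p = 0.0268), without wild-type pituitary 3 (-0.33, adjusted p = 0.0265) and without adenoma rat 6 (-0.29, adjusted p = 0.0344). It moved further from the threshold without wild-type pituitary 4 (-0.23, adjusted p = 0.145), and it did not pass in 26 of 33 alternatives.

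Six6 varied widely from rat to rat. It was at 9.32, 9.92 and 11.20 in the lowest, median and highest lesion, against 11.88, 10.71, 10.22, 9.99 and 10.90 in the wild-type pituitaries, so that 11 of 16 lesions lay below all wild-type pituitaries while the others reached far into their range. The rat averages were 10.20 ± 0.56 in the adenomas (SD, n = 9) and 10.74 ± 0.74 in the wild-type pituitaries (SD, n = 5), and the log2 fold change of -0.54 (SE 0.31) did not pass the test (adjusted p = 0.246, 95% interval -1.20 to 0.12). Leaving out wild-type pituitary 1, the highest and 1 of the 2 wild-type females, brought it to -0.25 (adjusted p = 0.546). With sex as a covariate it was -0.71 and did not pass either (adjusted p = 0.0974).

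Pitx1 encodes a bicoid-type homeodomain protein found in all hormone lineages of the anterior pituitary, which activates the promoters of Pomc, Cga and Lhb. The gene lies on chromosome 17 (8794051 to 8805477). It was at 8.23, 8.62 and 8.84 in the lowest, median and highest lesion, against 8.39, 8.45, 8.53, 8.42 and 8.38 in wild-type pituitaries 1 to 5. The wild-type pituitaries lay close together, with 11 of 16 lesions above and 2 below all of them. The adenomas thus spread more than the wild-type pituitaries for Pitx1 (SD 0.15, n = 9, against 0.060, n = 5), and the log2 fold change was 0.14 (SE 0.078, adjusted p = 0.229).

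Gata2 encodes a zinc finger factor that acts in gonadotrophs and thyrotrophs, where in mice it activates Cga and, together with POU1F1, Tshb. The gene lies on chromosome 4 (122211501 to 122225058). It was at 6.96, 7.50 and 8.14 in the lowest, median and highest lesion, against 6.88, 7.73, 8.44, 8.05 and 6.81 in the wild-type pituitaries. All 16 lesions lay within the wild-type range, which ran from 2 low female pituitaries (1 and 5) to 3 high male ones. The log2 fold change was -0.077 (SE 0.25, adjusted p = 0.862, 95% interval -0.60 to 0.45). Its sign turned with sex as a covariate (0.10), without wild-type pituitary 3 (0.14) or 4 (0.040), and without adenoma rats 7 to 9 (0.026).

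The wild-type values of several factors separated by sex. The interaction of genotype and sex, which asks whether the difference from wild-type is the same in females and males, passed the adjusted threshold for 0 of the 8 factors and for 0% of all probe sets by limma, with adjusted p of 0.593 or more. At an unadjusted p under 0.05 it passed for Gata2 (female minus male effect 0.88, p = 0.0118), Isl1 (0.73, p = 0.0207) and Lhx3 (-0.71, p = 0.0289), 3 of 8 factors, against 6.78% of all probe sets. Among the wild-type pituitaries, the values of Gata2, Isl1, Pitx1, Lhx3 and Six6 did not overlap between females and males, 5 of 8 factors, against 20.9% of all probe sets. This comparison was chosen after the values had been seen and rests on 2 females and 3 males.

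Gata2 averaged 6.84 in female and 8.07 in male wild-type pituitaries, a difference (female minus male) of -1.23 (SE 0.24, unadjusted p = 0.000178, adjusted p = 0.0669 from limma). Isl1 differed by -0.78 (unadjusted p = 0.00372), Lhx3 by 0.69 (unadjusted p = 0.0105) and Six6 by 1.08 (unadjusted p = 0.0276), and with adjusted p of 0.184 to 0.347 none of them passed. Isl1 and Gata2 were thus lower and Lhx3 and Six6 higher in the wild-type females than in the wild-type males. The summed gonadotroph markers were at 13.33 and 12.91 in the 2 female and at 14.06, 13.92 and 13.15 in the 3 male wild-type pituitaries. Cga weighs most in this sum. The part of the gonadotroph markers in these values was not tested.

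In the adenomas the sexes overlapped for every factor but Pitx1. Gata2 averaged 7.39 in female and 7.74 in male adenoma rats, and the female minus male difference of -0.35 did not pass (unadjusted p = 0.0832). Isl1 averaged 7.87 in female and 7.91 in male adenoma rats. The rise of Isl1 in the adenomas was 1.42 in females (adjusted p = 0.00459, where 1.8% of all probe sets passed) and 0.68 in males (adjusted p = 0.0414, where 11.3% passed) on the log2 scale, and the difference between the sexes did not pass after adjustment (adjusted p = 0.647). Pitx1 averaged 8.50 in female and 8.73 in male adenoma rats (limma unadjusted p = 0.0154, adjusted p = 0.813), where 5.7% of all probe sets had an unadjusted p under 0.05. Every male lay above every female, but only just, with the lowest male at 8.67 and the highest female at 8.66. The share of all probe sets without such overlap was not counted, and the sexes of the adenomas also differ in prefix.

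**Figure D3:**
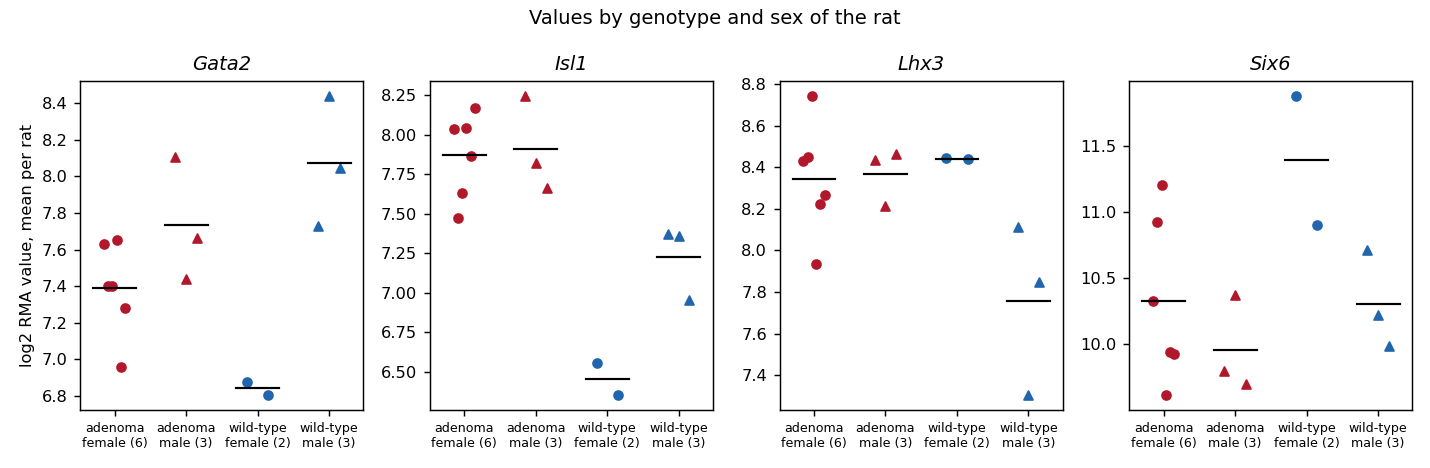
Log2 RMA value per rat (vertical axis, each panel with its own range) of Gata2, Isl1, Lhx3 and Six6 by genotype and sex, with lesions averaged within a rat and lines for group means. The wild-type sexes do not overlap for these 4 genes, while the adenoma sexes do, and Isl1 is higher in all adenoma rats than in all wild-type pituitaries.

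Age varied only among the adenoma rats. Over these 9 values, the slope of Six6 was -0.26 log2 units per month (SE 0.049, unadjusted p = 0.000344), and it did not pass over all probe sets (adjusted p = 0.136), where 0.00342% passed. At an unadjusted p under 0.05, 1 of 8 factors (Six6) passed, where 11.8% of all probe sets did, and Isl1 had a slope of 0.082 per month (unadjusted p = 0.0611). Six6 stood at 10.92 and 11.20 in the adenoma rats of 7 and 8 months (rats 4 and 6, both female), which was within the wild-type range. It was at 9.61 to 10.37 in the 7 rats of 10 to 12 months, which were of both sexes. With sex as a covariate the slope of Six6 was -0.25 (adjusted p = 0.120). The slope of Six6 passed without adenoma rat 2 (-0.27, adjusted p = 0.0435), and it was -0.30 without rat 4 (adjusted p = 0.588) and -0.21 without rat 6 (adjusted p = 0.345). Isl1 had its lowest rat averages, 7.47 and 7.63, in the same 2 rats.

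**Figure D4:**
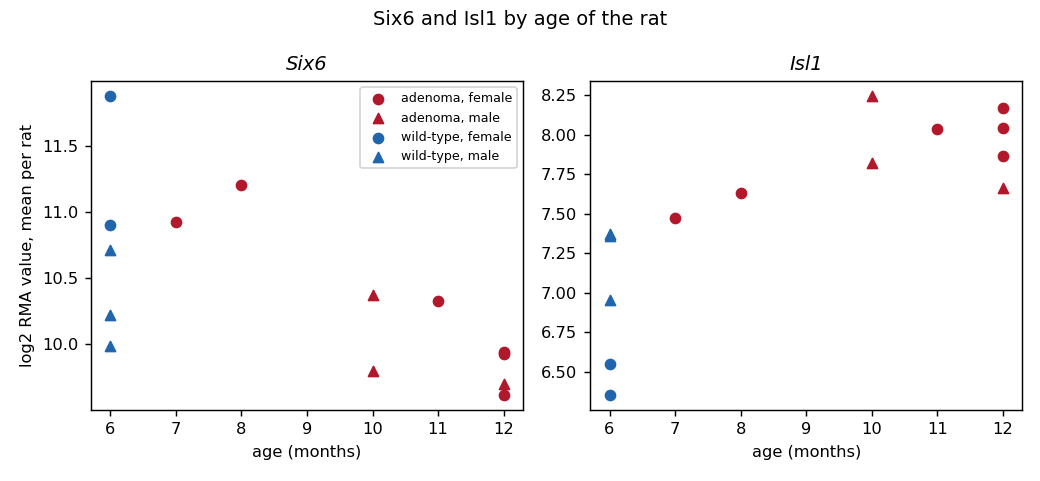
Log2 RMA value per rat (vertical axis) of Six6 and Isl1 against age in months (horizontal axis), with lesions averaged within a rat, adenoma rats in red and wild-type rats in blue, females as circles and males as triangles. The 2 youngest adenoma rats, both female, have the highest adenoma values of Six6 and the lowest of Isl1.

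Lesions of the same rat differed less than rats did for 6 of the 8 factors. For Six6 the SD was 0.36 within a rat and 0.56 between rats, and for Isl1 it was 0.20 within a rat and 0.26 between rats. Hesx1 and Lhx4, the 2 dim probe sets, were the exceptions, with 0.17 within and 0.13 between rats for Hesx1 and 0.15 within and 0.12 between rats for Lhx4. The adenomas spread less than the wild-type pituitaries for 6 of the 8 factors, and so did 71.5% of all probe sets. Among the 28 pairs of factors, over the 9 adenoma values, 2 correlated at an unadjusted p under 0.05 in a two-sided exact permutation test and 0 after adjustment over the 28 pairs. Pitx1 and Gata2 had r = 0.69 (exact permutation p = 0.0369, adjusted p = 0.462) and rho = 0.75 (exact permutation p = 0.0255), with r = 0.37 without the 2 rats farthest from the median of Pitx1. Six3 and Six6 had r = 0.68 (exact permutation p = 0.0443, adjusted p = 0.462) and rho = 0.53 (exact permutation p = 0.148). Without the 2 rats farthest from the median of Six3, r was -0.046, so that the relation rests on those rats. They are rats 4 and 6, the females of 7 and 8 months that also had the highest Six6 of the adenoma rats. With 5 and 4 adenoma rats, the prefixes were too small for values of their own.

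The mRNAs of proteins that work with the 8 factors were counted in lists, and each count stands against the 8.49% of all probe sets called higher and the 9.06% called lower. Of 8 measured cofactors of LIM homeodomain proteins, 3 were higher and 0 lower, and the median of their log2 fold changes was 0.31. Ssbp4, a partner of the LIM-binding protein LDB, rose by 0.78 (adjusted p = 0.000188). It was higher in all 9 rats than in any wild-type pituitary, where 4.82% of all probe sets separated without overlap in either direction. The LIM-only genes Lmo1 (0.73, adjusted p = 0.0401) and Lmo2 (0.39, adjusted p = 0.0175) rose as well. Ldb1 itself, which bridges LIM homeodomain proteins, had a log2 fold change of -0.27 and did not pass (unadjusted p = 0.0183, adjusted p = 0.0810). Of 10 measured partners of HESX1, of the proteins of the Six3 and Six6 family and of GATA proteins, 2 were higher and 3 lower. The GATA cofactor Zfpm2 rose by 0.79 (adjusted p = 0.00195) and Tle5 by 0.42 (adjusted p = 0.0109), whereas the corepressors Tle4 (-0.63, adjusted p = 0.0490), Tle3 (-0.55, adjusted p = 0.0122) and Ncor1 (-0.33, adjusted p = 0.0278) fell.

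Of 10 measured genes listed as targets of the 8 factors, 2 were higher and 7 lower, with a median of -1.36, against 8.49% of all probe sets called higher and 9.06% lower. The 7 include Egr1 (-1.36, adjusted p = 0.0243), an immediate early gene that drives Lhb, whose regulation by the 8 factors is not established here. The rises were Gnrhr, the receptor of gonadotropin-releasing hormone (1.40, adjusted p = 0.00360), and Cga, the alpha subunit shared by the glycoprotein hormones (0.91, adjusted p = 0.000109). The falls included Tshb (-3.75, adjusted p = 0.00459), Pomc (-3.75, adjusted p = 0.000857), Fshb (-2.38, adjusted p = 0.0161) and Lhb (-2.24, adjusted p = 0.000183), the beta subunits and the corticotropin precursor. Cga was thus higher and all 3 beta subunits lower in the adenomas. Prl, with a difference of 0.079 (adjusted p = 0.434), and Cga both averaged 13.77 in the adenomas, close to the highest value on any array (14.09), where differences can be understated, so no absence of a difference is read for Prl.

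Of 29 other measured transcription factors of pituitary fate, 2 were higher and 10 lower, with a median of -0.096, where 8.49% of all probe sets were called higher and 9.06% lower. The basic helix-loop-helix genes Neurod1 (3.36, adjusted p = 7.5e-06) and Neurod4 (1.28, adjusted p = 0.00144) rose. Tbx19, the factor of the Pomc lineage (-2.07), Pou1f1, that of somatotrophs, lactotrophs and thyrotrophs (-1.08), Msx1 (-0.98) and Pax6 fell with adjusted p from 7.12e-06 to 0.0238. Sox2, a marker of pituitary stem cells (-0.40, adjusted p = 0.0143), and Gli2, an effector of hedgehog signalling (-0.70, adjusted p = 6.65e-05), fell as well. Tbx19, Msx1, Sox2 and Gli2 were lower in all 9 rats than in any wild-type pituitary, and Neurod1 was higher in all 9. Such a separation, in either direction, was shown by 4.82% of all probe sets. Of 14 signals and receptors that pattern the pouch, 3 were higher and 3 lower, against the same shares of all probe sets. Bmp7 (2.69, adjusted p = 0.000160) and Fgfr2 (1.90, adjusted p = 0.000109) had the largest rises of this list, and Fgf10 (-0.68, adjusted p = 0.0181), the ligand of FGFR2 in the pouch, fell. Bmp4, Fgf8 and Shh, which also pattern the pouch, had differences of -0.061, -0.16 and 0.088 and did not pass.

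**Figure D5:**
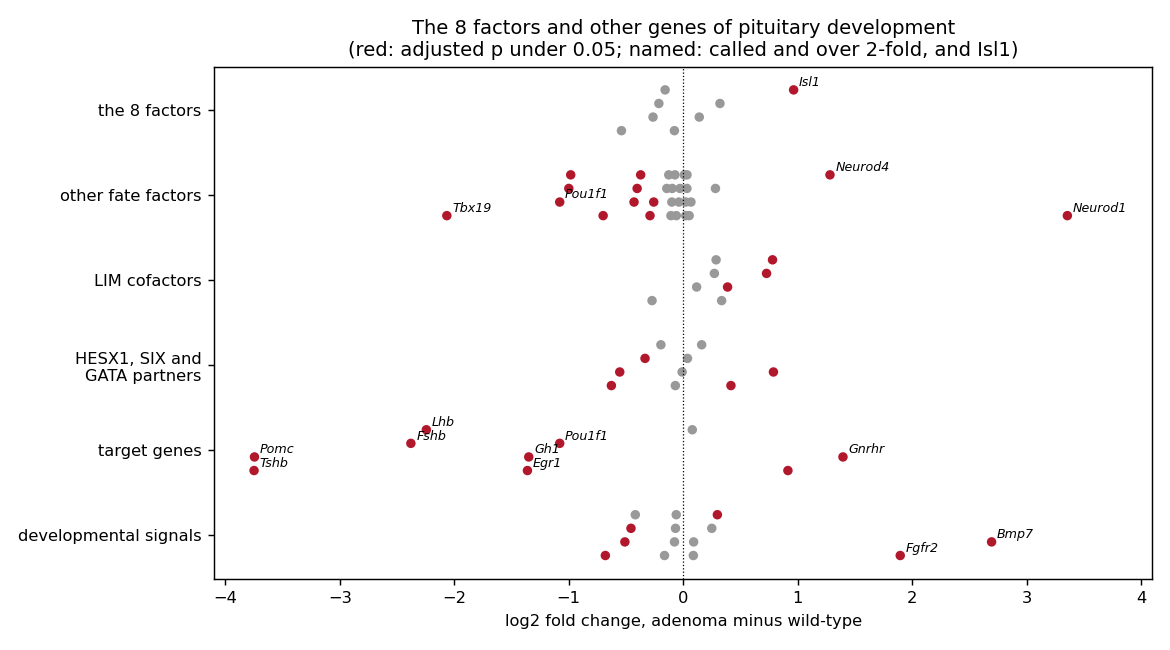
Log2 fold change (adenoma minus wild-type, horizontal axis) of the 8 factors and of the measured members of 5 lists, each point a gene and red points those with an adjusted p under 0.05. The 8 factors lie between -0.54 and 0.96, and the targets reach from -3.75 to 1.40.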

How the data were processed

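RNA from 16 macrodissected MENX pituitary lesions and 5 wild-type pituitaries was hybridized to Affymetrix Rat Gene 1.0 ST arrays. The authors summarized the probes of each gene by RMA in Affymetrix Expression Console (quantile normalization on a sketch of the data, then median polish), and deposited the log2 values. Program versions were not given in the sources used here. Quantile normalization brings the probe distributions of the arrays together before the median polish, so a shift shared by most genes would not be seen. The deposited values did not share exactly the same distribution, with array medians from 6.36 to 6.53. RMA also understates the fold changes of dim probe sets such as Hesx1. Precision was limited by how many arrays there were.

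Of 29214 probe sets, 15310 carried 1 gene symbol, 323 several and 13581 none. Lesions of a sample number were averaged (9 adenoma values, 5 wild-type values), and limma 3.58.1 in R 4.3.3 was fitted per probe set with genotype as the only term (12 residual and 3.21 prior degrees of freedom). The Benjamini-Hochberg adjustment covered the whole array, and a call needed an adjusted p under 0.05. The interaction of genotype and sex and the slope on age in the adenomas were fitted in the same way, and correlations between factors were tested by exact permutation (two-sided). The scripts were tested on simulated data. Promoters were the 250 bases before the start in the RefSeq table of the GRCr8 build, which held 7 of the 8 factors, Pitx1 being named only. Gene positions are from RefSeq on the same build.

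The factors, the lists of cofactors, partners, targets, fate factors, signals and cell type markers, and the tests were chosen with earlier results of these data known. Genes named from the lists were mostly called ones, but not strictly by size of change, and some that did not pass were named too. Called genes not described above include Gh1 (-1.35), Wnt5a (-0.51), Nog (-0.46), Hes1 (-0.43) and Wnt4 (0.30). From the array, the 3 probe sets most like a called factor were named. The alternatives were lesions as samples, other tests and variance models, prefix, replicate number or sex in the fit, subsets by prefix, age or sex, array weights, centring or quantile normalization of the arrays, a filter on dim probe sets, other thresholds and each rat left out. The comparison of the wild-type sexes, the fits by sex and the omission of adenoma rats 7 to 9 were added after the data had been seen. The study's methods state ages of 7 to 8 months for the tumor-bearing rats, and the labels, which were used here, give 7 to 12 months.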

Additional observations from a re-analysis of the deposited data

How the results depend on the processing

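Pitx1 kept its direction and stayed short of the threshold in all 33 alternatives, and Isl1 kept its direction in all 33 and its call in 30. Leaving out each rat in turn, the log2 fold change of Isl1 ranged from 0.82 to 1.08, that of Six3 from -0.33 to -0.22, of Hesx1 from -0.23 to -0.18, of Lhx4 from -0.24 to -0.093, of Six6 from -0.73 to -0.25, of Lhx3 from 0.14 to 0.42 and of Gata2 from -0.27 to 0.14, and 1 to 2 factors were called. Isl1 lost its call with unequal variances (0.96, adjusted p = 0.0717), in prefix 08 alone (0.89, adjusted p = 0.120) and with the adenomas of 7 or 8 months alone (0.63, adjusted p = 0.619), where the fits by prefix and by age held fewer rats. With prefix 08 or these ages alone, and with a fold over 2 required, 0 factors were called.

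Six3 passed with the number as a random block (-0.28, adjusted p = 0.0166), lesions as independent samples (-0.29, adjusted p = 0.00713), the methods' t-test over lesions (-0.29, adjusted p = 0.00629), sex as a covariate (-0.31, adjusted p = 0.0268) and the filter on dim probe sets (-0.26, adjusted p = 0.0484), which removed Hesx1 and Lhx4. Independent lesions and the t-test over lesions ignore that lesions of a rat belong together, so their p-values overstate the evidence. Hesx1 passed with the first-listed lesion of each rat (-0.25, adjusted p = 0.0418), unequal variances (-0.21, adjusted p = 0.0356), the prefix as a block (-0.22, adjusted p = 0.0420) and a variance trend with robust fitting (-0.21, adjusted p = 0.0435). Except with unequal variances, where Isl1 was lost, 2 factors were called in each of these 9 fits. Six3 did not pass in 26 of its 33 alternatives and Hesx1 did not in 27 of its 32. Directions turned for Six6 with the adenomas of 7 or 8 months alone (0.33), for Gata2 in prefix 08 alone (0.34), with sex as a covariate (0.10), without adenoma rats 7 to 9 (0.026) and in females alone (0.55), and for Lhx3 (-0.10) and Lhx4 (0.0013) in females alone. The 2 adenoma rats of 7 and 8 months, at 10.92 and 11.20 for Six6, were both female, while the wild-type group held both sexes. Six6 averaged 11.39 in the female and 10.30 in the male wild-type pituitaries. The causes were not tested.

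Replicate numbers 1 to 5 occur in both groups, and the deviations of the same-numbered samples correlated from -0.053 to 0.20, so that the numbers were not taken as pairs. With the replicate number as a block, lesions were fitted unaveraged and those numbered above 5 carried no weight. The lesions numbered 1 to 5 came from adenoma rats 1, 2 and 3 only. Rats 1 and 2 gave 2 lesions each, which this fit treated as independent, so its p-values overstate the evidence. In this fit 2 factors were called, Isl1 and Six6 (-0.58, adjusted p = 0.0368), and Gata2 turned to 0.18.

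Over all probe sets, calls changed by more than 1.5 times with lesions as independent samples (4142 lower), the methods' t-test (4014 lower), unequal variances (1095 higher, 829 lower), prefix 08 alone (363 higher, 345 lower), ages of 7 or 8 months (119 higher, 14 lower), females (349 higher, 177 lower) or males alone (1557 higher, 1731 lower) and without adenoma rats 7 to 9 (1644 lower). Leaving out each rat, the lowest and highest counts were 1573 and 3106 higher and 1649 and 3780 lower, both lowest without wild-type pituitary 4. The age slope passed for 0 to 1 factors, Six6 without adenoma rat 2, and the sex interaction for 0 throughout.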

Other observations

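Outside the 8 factors, other genes of the lists also differed between the female and the male wild-type pituitaries, a comparison chosen after the values had been seen, with 2 females and 3 males and p-values that are not adjusted. Pax6, a paired box factor of the dorsal pouch, had a female minus male difference of -1.16 (p = 0.000592), Msx1 of -0.77 (p = 0.000736) and Fgf10 of -0.83 (p = 0.00113), whereas Neurod4 was higher in females by 1.01 (p = 0.00150) and Gata1 by 0.45 (p = 0.00271). On the list of targets, Fshb differed by -2.04 (limma p = 0.0340) and Prl by 0.22 (p = 0.0340). Both were without overlap between the sexes, as were 20.9% of all probe sets. Egr1, an immediate early gene that drives Lhb (-1.55, p = 0.00918), and Cga (-0.40, p = 0.0180) overlapped. Of all probe sets, 11.8% had an unadjusted p under 0.05 in the same comparison and 0.178% an adjusted one.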
